A study of Homo sapiens with 102 samples.

Results

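The position of CENP-A was followed through 6 libraries of the series, 3 of the 49 of HAC 1-20 and 3 of the 49 of HAC 4-65, beside 4 libraries of other lines. They are those precipitated with the CENP-A antibody and labelled thymidine, colcemid or colcemid release, with 1 library per line and label. Both lines are HT1080 fibrosarcoma cells, a human connective tissue tumour line, that carry a human artificial chromosome (HAC), and each came from a single picked colony. Cells were blocked with thymidine at the G1/S boundary, arrested in metaphase with colcemid, or released from colcemid for 3 h into early G1. None of them received siRNA. Untreated and siControl cells of the same lines, the latter transfected with a control siRNA, were measured the same way and serve here as a pair that was not synchronised. In HAC 1-20, siKAT7 and siHJURP cells, transfected with siRNA against KAT7 or HJURP, are also set beside the stages. DNA of 3 ChIP reactions was pooled in each library, so the reactions cannot be told apart and no test was possible within a line. Over 2 lines, an exact sign test cannot give a p below 0.5. Intervals below are 95% intervals. They cover counting error only, since reads were amplified by PCR and carry no molecular identifiers. The code counts hold nothing that checks the cell cycle stage, which is as labelled.

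CENP-A is the histone H3 variant that marks centromeric chromatin and recruits the proteins of the kinetochore. In human cells, parental CENP-A is shared between the daughter strands when centromeric DNA is replicated. New CENP-A is loaded by its chaperone HJURP after mitosis, in early G1. Metaphase therefore follows dilution and precedes replenishment.

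Reads were assigned to short sequences, the position codes, that were built into each repeat unit of the HAC. Units with a CENP-B box, on which centromeres form, are named CenU (codes T), and units that do not form centromeres are named NCU (codes L). A T code and the L code of the same number differed by 1 base in 94 of the 96 numbers that have both. The other two are numbers 001 and 072, which stood exchanged between the T list and the L list. The primer of unit 001 likewise held the sequence listed as T072, and the primer of unit 072 the one listed as T001. T001 is therefore placed at 72 along the construct. The codes that the results below turn on are shown here, 5′ to 3′, with the 6 varying bases in capitals. T078 and T084 lie on the plateau of CENP-A in HAC 1-20, and T091, T096 and T099 in the stretch that moved most. T036 and T090 had high shares of T reads in HAC 4-65. L096 is the NCU partner of T096, from which it differs by G4C, counted from the 5′ end of the code.
T036: ggggaaaaAGcccACtttACggg
T078: ggggaaaaTAcccCTtttCTggg
T084: ggggaaaaTTcccACtttACggg
T090: ggggaaaaTTcccGTtttGTggg
T091: ggggaaaaTTcccGGtttGGggg
T096: ggggaaaaTTcccCCtttCCggg
T099: ggggaaaaTGcccAGtttAGggg
L096: gggcaaaaTTcccCCtttCCggg

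Depth differed widely. In HAC 1-20 the thymidine, colcemid and release libraries held 67905, 127360 and 163116 matched reads. In HAC 4-65 they held 3071, 46586 and 36656. The HAC 4-65 thymidine library thus had a median of 37 reads per carried code, against 480 in colcemid and 403 in release, and statements on its single codes are weak. A code was counted as carried by a line when its median share of T reads over the 49 libraries of that line was at least 0.1%. This gave 61 T codes in HAC 1-20, between T065 and T128 and including T001, and 75 in HAC 4-65, between T001 and T095. The lines shared 27 of them. Codes that were not carried took 0.363% to 0.644% of T reads in the 6 libraries.

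The level of CENP-A on CenU relative to NCU was lowest in colcemid in both lines. In HAC 1-20, T reads over L reads were 5.42 in thymidine, 2.57 in colcemid and 3.44 after release. In HAC 4-65 they were 5.51, 2.95 and 3.89. The order was the same in the lines, and release stayed under thymidine in each. The paper, which scaled recovery by qPCR, instead reports a slight excess of CENP-A in G1. It names an exception in HAC 4-65, a CENP-A dense region (D4) where release and thymidine did not differ. The qPCR scale was not used here, and T over L gives a level relative to NCU only.

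The fall from thymidine to colcemid was -1.08 on the log2 scale in HAC 1-20 (-1.11 to -1.04) and -0.90 in HAC 4-65 (-1.04 to -0.76). The rise from colcemid to release was 0.42 (0.40 to 0.45) and 0.40 (0.35 to 0.45). Release against thymidine was -0.66 (-0.69 to -0.62) in HAC 1-20 and -0.50 (-0.65 to -0.35) in HAC 4-65. These changes stand beside a difference of -0.63 between siControl and untreated cells in HAC 1-20, and of -1.0 in HAC 4-65. The pair that was not synchronised thus differed by more than the rise after release in both lines, and in HAC 4-65 by more than each of the 3 changes. The HAC 4-65 siControl library held only 1494 matched reads.

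The NCU reads that form the denominator were themselves uneven between stages. Between the colcemid and release libraries of HAC 4-65, 41.2% of L reads would have to move to another code to make the profiles alike, where counting alone would give about 5.52%. With odd and even L codes taken apart, the rise after release was 0.44 and 0.36 in that line and 0.37 and 0.49 in HAC 1-20. The codes L097 to L128, for which no NCU unit was listed, held reads equal to 0.369% of those of T097 to T128 in the thymidine library of HAC 1-20, 1.02% in colcemid and 0.944% after release. Without T117 and L117, these shares carried over to all T codes would amount to 1.52%, 1.67% and 2.26% of L reads.

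A lower ratio of T to L reads in colcemid than in thymidine was also measured for the histone marks. The ratio fell from thymidine to colcemid for each of the 6 histone marks in both lines. In HAC 1-20 the changes were -0.59 for H3K4me2, -0.80 for H4K8ac, -0.93 for H3K36me2, -1.01 for H3K9me3, -1.49 for H3K14ac and -2.90 for H4K20me1, so that CENP-A lay among the marks. In HAC 4-65, the fall of CENP-A was exceeded only by H4K20me1, at -2.66. The other five marks there lay between -0.61 (H3K14ac) and -0.10 (H3K4me2). From colcemid to release H3K9me3 fell further in both lines, by 0.79 and 0.32 on the log2 scale, while CENP-A, H3K4me2, H4K8ac, H4K20me1 and H3K36me2 rose in both. H3K14ac rose by 1.15 in HAC 1-20 and was at -0.03 in HAC 4-65. Release against thymidine was negative for each of the 6 marks in HAC 1-20, from -0.06 (H4K8ac) to -1.80 (H3K9me3). In HAC 4-65 it was positive for H3K4me2 (0.47), H4K8ac (0.79) and H3K36me2 (0.02, -0.02 to 0.07), and negative for the other marks. All these values are relative to NCU. On its qPCR scale the paper instead reports a rise of H3K9me3 in colcemid where CENP-A was dense in longer CenU stretches. For shorter stretches it reports a fall or no change.

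**Figure D1:**
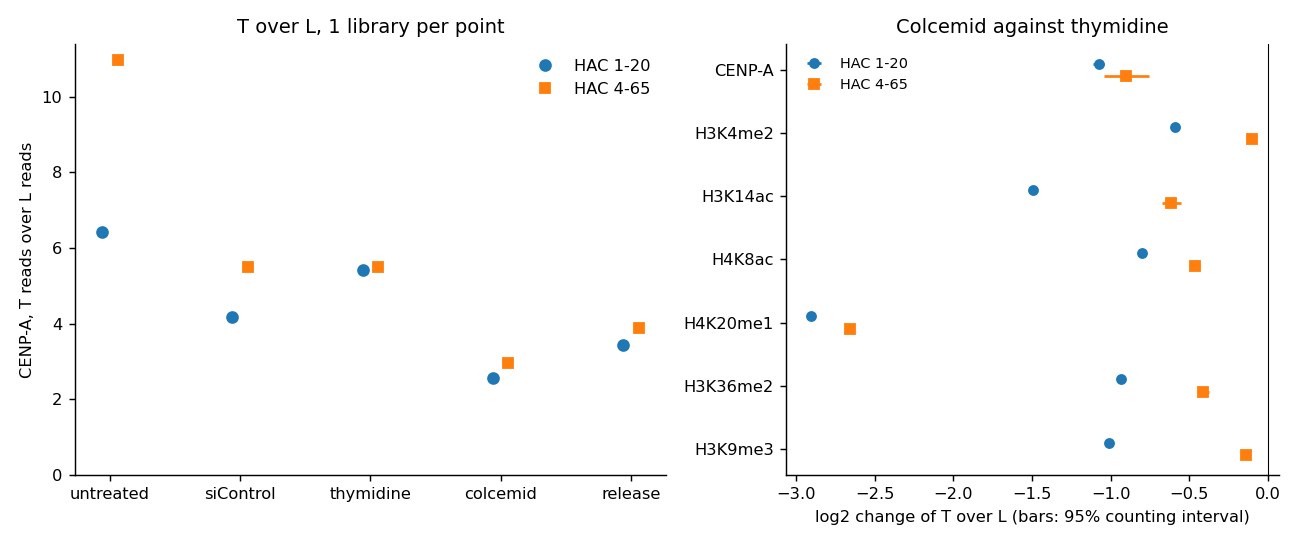
Left, CENP-A reads on T codes over reads on L codes (linear axis) in 5 conditions of HAC 1-20 (circles) and HAC 4-65 (squares), 1 library per point. Right, log2 change of T over L from thymidine to colcemid for CENP-A and 6 histone marks with 95% counting intervals; all 14 values are below 0, with CENP-A at -1.08 and -0.90.

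The fall and rise were seen at most carried codes of each line. In HAC 1-20, 58 of 61 codes were lower over L reads in colcemid than in thymidine, 52 were higher again after release, and 52 did both. T109 was the code whose interval lay above 0 in colcemid, from 14 reads in thymidine to 147. Lower after release than in colcemid, with intervals below 0, were 6 codes: T065, T102, T105, T106, T107 and T125. Release exceeded thymidine, with intervals above 0, at T109, T123 and T124. In HAC 4-65, 68 of 75 codes were lower in colcemid, 54 were higher after release and 51 did both, 32 of them with both intervals off 0. There 21 codes were lower after release than in colcemid, 14 with intervals below 0: T003, T006, T012, T019, T026, T027, T031, T043, T044, T052, T054, T078, T080 and T094. Since all codes of a library share its L reads, these counts are not independent observations of the cycle.

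Position was then read as each code's share of T reads, which does not depend on L reads. Shares were not divided by the copies of each code in genomic DNA. They compare a code between libraries, and do not rank codes by CENP-A per copy. In HAC 1-20, CENP-A in the thymidine library formed a plateau from T071 to T087 with a median share of 2.64% per code, which ran on past T087 and fell slowly to T102. In colcemid and release the plateau had medians of 2.64% and 2.55%, and the shares fell soon after T087. Leaving aside T088, which held 0.0414% to 0.0872% of T reads, the first code under 50% of the plateau median was T099 in thymidine, T090 in colcemid and T092 after release. It was T092 in untreated and T091 in siControl cells. It was T098 in siKAT7 and T100 in siHJURP cells, which were treated with siRNA against the acetyltransferase KAT7 or the chaperone HJURP. The plateau of the thymidine library thus ended near that of these siRNA libraries, and in the other four libraries it ended between T090 and T092. Edges are given by code number here and below, which need not be the order on the HAC.

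**Figure D2:**
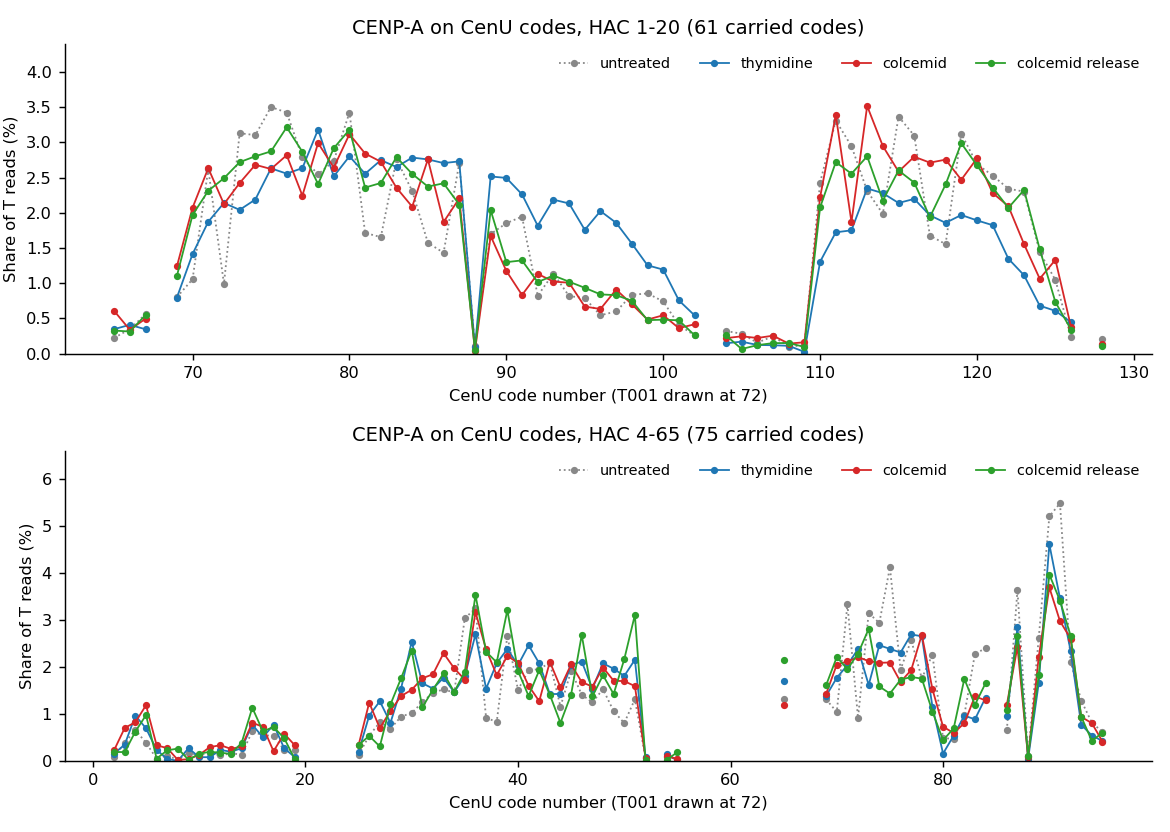
Share of T reads per carried CenU code (y axis, %) against code number in HAC 1-20 (top) and HAC 4-65 (bottom) for untreated, thymidine, colcemid and release libraries. In HAC 1-20 thymidine is above the other libraries from T090 to T101 and below colcemid from T110 to T125; in HAC 4-65 the 3 stages overlap along most of the codes.

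The stretch T088 to T102, 15 carried codes in HAC 1-20, held 24.5% of T reads in thymidine (24.1% to 24.8%), 11.6% in colcemid (11.4% to 11.8%) and 12.9% after release (12.7% to 13.1%). It held 13.4% in untreated and 12.1% in siControl cells. The stretch was chosen after its values were seen. T096 went from 2.03% in thymidine to 0.634% in colcemid and 0.841% after release, beside 0.545% in untreated cells. T091 was at 2.26%, 0.832% and 1.32%, and T095 at 1.76%, 0.667% and 0.934%. These codes had the largest falls from thymidine to colcemid among the 53 codes that had 100 or more reads at both stages, between 2.63-fold and 3.19-fold. Against thymidine, release was lowest at T099 (1.25% and 0.475%), T100 (1.19% and 0.482%) and T096. T094, in thymidine the richest code between T094 and T110, fell from 2.13% to 1.01% and stayed at 1.02%, while T110 went from 1.30% to 2.22% and 2.08%.

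The share lost by this stretch was gained mainly by T110 to T125. The codes T111 to T123 held 24.4% of T reads in thymidine, 33.8% in colcemid and 32.1% after release, with 33.2% in untreated and 32.3% in siControl cells. T111 rose from 1.72% to 3.39% in colcemid and was at 2.72% after release. T113, the richest code there in thymidine and colcemid, went from 2.35% to 3.52% and 2.80%, and after release T119 was richer, at 2.99%. Toward the highest code numbers T124 climbed at both steps, from 0.680% through 1.06% to 1.48%, and T123 from 1.11% through 1.56% to 2.33%. T125 was highest in colcemid, at 0.607%, 1.33% and 0.731%. The upper edge by code number, the first code under 50% of the median of T111 to T121, was at T124 or T125 in each of the 3 libraries. It is not a boundary read on the HAC, since in the part of the assembly at hand T124 followed the NCU code L002.

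The plateau changed less than T088 to T102 and T111 to T123. T071 to T087, with T001 placed among them, held 43.5% of T reads in thymidine, 43.2% in colcemid and 44.8% after release. T078, the richest code of the thymidine library, was at 3.18%, 2.99% and 2.41%. T080 was at 2.80%, 3.12% and 3.18%, and T084 at 2.79%, 2.09% and 2.55%. None of the 17 codes of the plateau changed by 1.5-fold in any of the 3 comparisons.

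Some codes with little CENP-A rose in share in colcemid and others fell. T104 to T109 together took 0.691% of T reads in thymidine, 1.24% in colcemid and 0.835% after release, beside 1.22% in untreated and 0.930% in siControl cells. T109 had 14 reads in thymidine, 147 in colcemid and 119 after release. T105 fell 3.77-fold from colcemid to release, from 225 to 82 reads. T065 went from 0.347% to 0.606% and back to 0.327%. T066 fell from 0.408% to 0.338% in colcemid (log2 change -0.27, -0.52 to -0.03) and T126 from 0.445% to 0.374% (-0.25, -0.48 to -0.02). In the assembled contigs of HAC 1-20, of which only part was at hand, T065 to T067 were followed directly by T104 to T110 at a spacing of 1946 bases, with NCU codes on the far side of T110. On this contig of 103374 bases, in the coordinates of the assembly, the code T109 spanned bases 57004 to 57026 and T110 bases 58950 to 58972. Other copies of these codes may lie outside the part at hand.

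By block, T084 to T093 went from 22.4% of T reads in thymidine to 14.8% in colcemid and 16.3% after release in HAC 1-20. T094 to T110 went from 15.1% to 9.20% and 8.99%. T111 to T128 went from 26.3% to 36.7% and 34.7%, and T065 to T083 from 35.9% to 39.0% and 39.6%. In each block the thymidine value lay outside the range of the other two stages, and the step from thymidine to colcemid was larger than the step from colcemid to release.

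**Figure D3:**
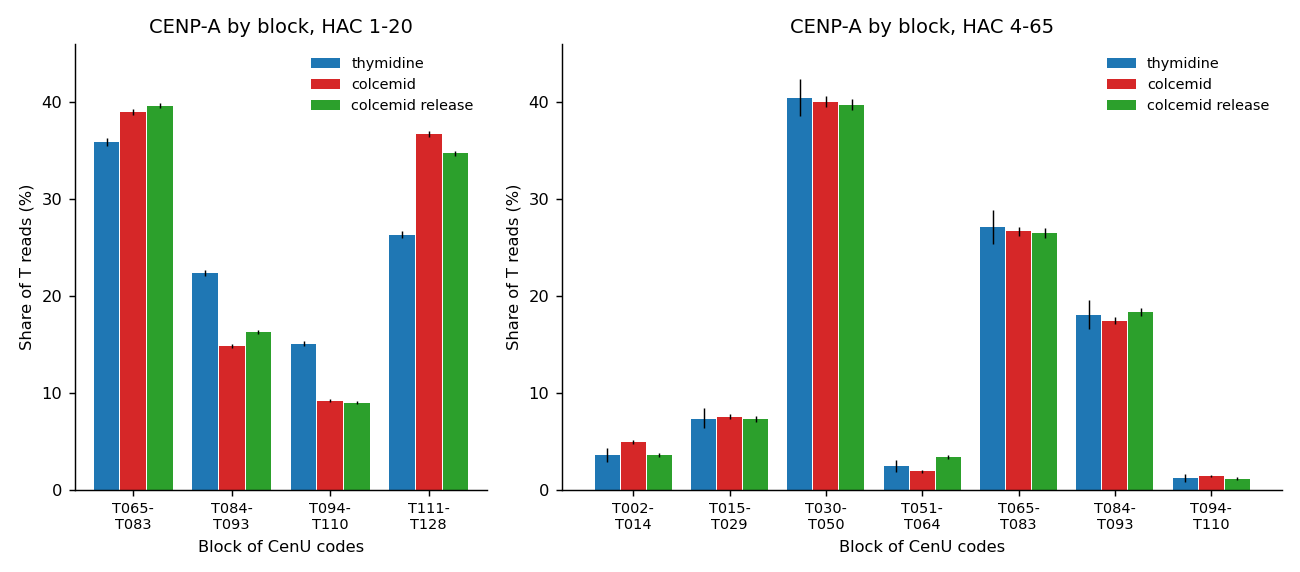
Share of T reads (y axis, %) by block of CenU codes in thymidine, colcemid and release libraries of HAC 1-20 (left) and HAC 4-65 (right); bars start at 0 and error bars are 95% counting intervals. In HAC 1-20, T084 to T110 fall and T111 to T128 rise from thymidine to colcemid, while in HAC 4-65 the largest block, T030 to T050, stays between 39.7% and 40.4%.

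Counted code by code, 24 of 61 codes (39.3% of those tested) differed in share by at least 1.5-fold between colcemid and thymidine in HAC 1-20, with intervals off no change. The same rule passed 21.3% of T codes between siControl and untreated cells and 44.8% of the carried L codes between colcemid and thymidine. The part of codes that passed was thus above that between siControl and untreated cells, but not above that of the L codes. The L codes held fewer reads, 10578 in thymidine against 57327 on T codes. The arrangement of the 24 T codes was not scattered. All 14 lower codes (23%) formed 1 run, T088 to T101, without a carried code left out, and the 10 higher ones (16.4%) were T065, T069, T106, T107, T109 to T111, T122, T124 and T125. The change of a code and that of the next carried code correlated at r = 0.72 over 60 pairs of codes, where r was 0.12 over 95 pairs of L codes and 0.16 between siControl and untreated cells. These r values are descriptions, since all codes of a comparison come from the same libraries. Consecutive numbers need not be neighbours on the HAC either, as in the contigs at hand T067 was followed by T104 and T120 by T113.

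Between release and colcemid, 8 of 61 codes passed (13.1%), beside 46.9% of L codes. T091 was the 1 higher code (1.64%). The 7 lower ones (11.5%) were T065, T102, T105 to T107, T109 and T125, all sparse in CENP-A, and r for consecutive codes was 0.13. Between release and thymidine 24 codes passed (39.3%), 9 higher (14.8%) and 15 lower (24.6%), beside 39.6% of L codes. The lower ones were T088, T090 to T102 and T105. T124, T123 and T110 rose most among codes with at least 100 reads. This comparison shares the thymidine library with the first one, and its falls again held T090 to T101. Measured as the part of the T reads that would have to move between codes, colcemid differed from thymidine by 16.1%, release from thymidine by 15% and release from colcemid by 8.26%, where counting would give 1.33% to 1.66%. SiControl differed from untreated cells by 12.4%.

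**Figure D4:**
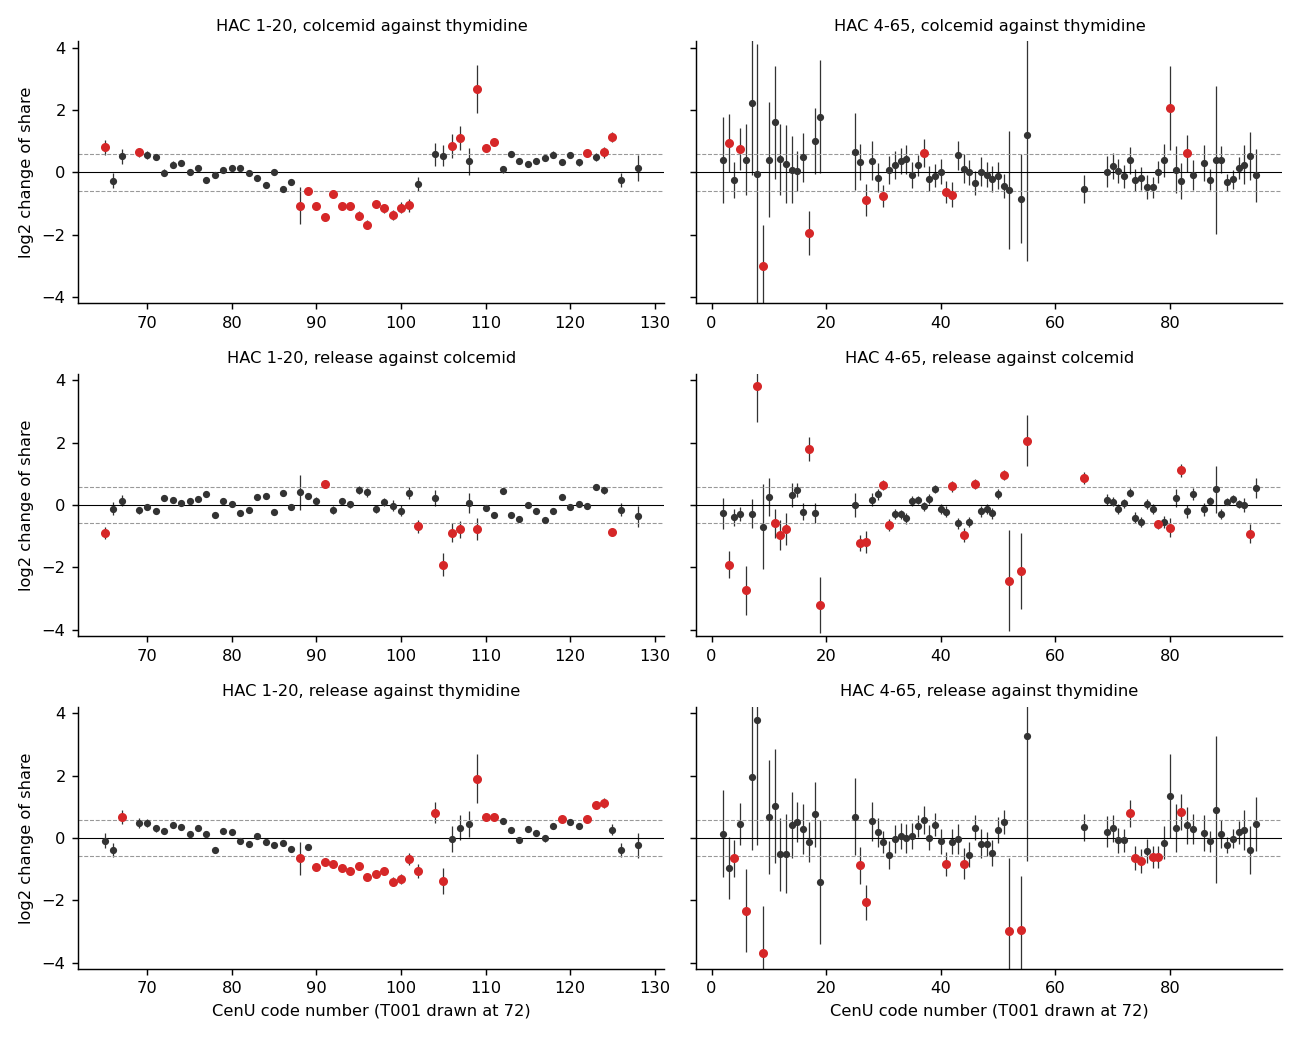
log2 change of each carried code's share of T reads (y axis) against code number for 3 comparisons in HAC 1-20 (left) and HAC 4-65 (right). Vertical lines are 95% counting intervals, cut at the panel edge; dashed lines mark 1.5-fold; red points pass 1.5-fold with intervals off 0, such as the run T088 to T101 at the upper left.

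The distribution of the histone marks moved with the same libraries. In the thymidine library of each antibody in HAC 1-20, T088 to T102 held between 18.2% (H3K9me3) and 24.5% (CENP-A) of T reads, a range of 6.26 percentage points. In colcemid the range was 14.1 points, from 11.6% (CENP-A) to 25.7% (H3K36me2), and after release it was 11.1 points. It was 11.1 points in untreated and 11.9 points in siControl cells. In siKAT7 and siHJURP cells the range was again small, at 7.12 and 4.59 points, and CENP-A was at 22.1% and 23.2%. From thymidine to colcemid H4K8ac went from 23.9% to 19.1% and H4K20me1 from 23.2% to 17.2%, in the direction of CENP-A, while H3K9me3 went from 18.2% to 23.9% and H3K36me2 from 21.0% to 25.7%. The CENP-A profile of thymidine differed from that of siHJURP by 4.85% and from that of siKAT7 by 7.27% of T reads, less than from any of the other four conditions. The part of this difference between sets of libraries in the change of CENP-A was not tested.

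**Figure D5:**
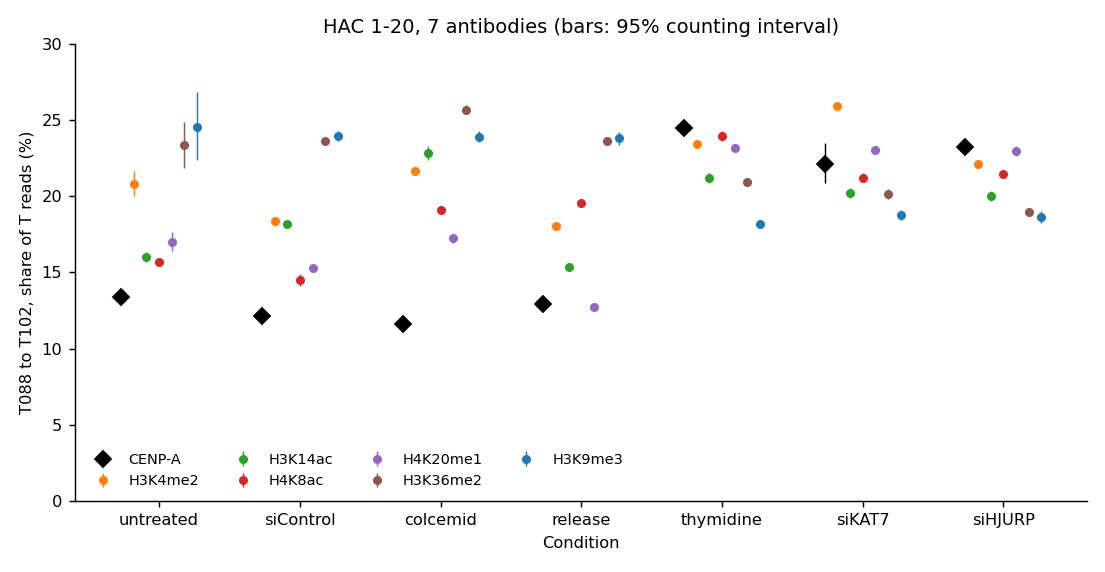
Share of T reads on T088 to T102 (y axis, %) in HAC 1-20 for CENP-A (black diamonds) and 6 histone marks in 7 conditions, 1 library per point with 95% counting intervals. CENP-A is at 11.6% to 13.4% in the 4 conditions on the left, below most marks, and at 22.1% to 24.5% in thymidine, siKAT7 and siHJURP, where the antibodies lie close together.

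In HAC 4-65 the position of CENP-A did not move in a like manner. The block T030 to T050 held 40.4% of T reads in thymidine (38.5% to 42.4%), 40.1% in colcemid and 39.7% after release. T065 to T083 held 27.1%, 26.7% and 26.5%, and T084 to T093 held 18.0%, 17.4% and 18.3%. In the same order of blocks, untreated cells held 34.0%, 31.0% and 23.5%, and siControl cells 35.0%, 30.3% and 18.7%. The intervals of the 3 stages overlapped in the first and second of these blocks. In T084 to T093 release lay above colcemid by 0.07 on the log2 scale (0.02 to 0.12), and the interval of thymidine held both. T088 to T102, of which this line carried 8 codes, held 13.9%, 13.8% and 14%. The log2 change from thymidine to colcemid was -0.01 (-0.15 to 0.13, counting error only), beside -1.08 over the 15 codes of HAC 1-20. Between siControl and untreated cells of HAC 4-65 the same stretch changed by -0.38 (-0.58 to -0.18).

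T090 was the richest code of HAC 4-65 in each stage, at 4.62% in thymidine (120 reads), 3.70% in colcemid and 3.97% after release. It was not among the codes called dense below. T091 followed in thymidine at 3.46% (90 reads) and T087 at 2.85% (74 reads). T036, the richest code of T030 to T050, was at 2.69%, 3.17% and 3.54%. T077, the richest of T065 to T083 in thymidine, was at 2.69%, 1.93% and 1.79%, T029 at 1.54%, 1.38% and 1.76%, and T094 at 0.539%, 0.802% and 0.425%. In colcemid T078 (2.69%) and after release T073 (2.81%) were richer than T077. By code number, the lower edge of T030 to T050 was at T028 in thymidine and at T027 in colcemid and release.

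The smaller blocks varied more. T002 to T014 held 3.54%, 4.89% and 3.57% of T reads, and T051 to T064 held 2.42%, 1.89% and 3.38%. In the latter block T051 alone went from 1.59% in colcemid to 3.11% after release, while T052 and T054 went from 22 to 3 and from 33 to 6 reads. T027 went from 1.27% in thymidine (33 reads) through 0.695% to 0.305%, and T026 from 0.962% (25 reads) through 1.24% to 0.531%. T019 had 2, 115 and 10 reads.

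Between colcemid and thymidine, 11 of 75 codes (14.7%) passed 1.5-fold in HAC 4-65, 5 higher (6.67%) and 6 lower (8%), beside 15.8% of L codes. Of codes with at least 30 reads, T037, T043 and T034 had the largest rises, up to 1.53-fold at T037, and T027, T030 and T042 the largest falls. Between release and colcemid 24 codes (32%) passed, 9 higher (12%) and 15 lower (20%). Between release and thymidine 15 passed (20%), 2 higher (2.67%) and 13 lower (17.3%). T082, T051 and T065 rose most and T026, T044 and T094 fell most from colcemid to release, among codes with at least 100 reads. Against thymidine, release was highest at T073, T037 and T051 and lowest at T027, T041 and T044. Between siControl and untreated cells 34.7% passed. Among L codes 78.9% passed between release and colcemid and 37.9% between release and thymidine. Changes of consecutive carried codes correlated at r = 0.02, 0.01 and -0.17 over 74 pairs. The longest run of codes that passed in 1 direction was T011 to T013, lower after release than in colcemid, and pairs such as T026 with T027 and T052 with T054 were also lower together. T reads to be moved were 11.4%, 13.1% and 12.8% in the 3 comparisons, where counting alone would give 6.78%, 2.68% and 6.74%. SiControl differed from untreated cells by 18.2%, more than in any of the 3 comparisons, where counting would give 9.47%. For that pair r was 0.27.

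The 27 codes carried by both lines were set side by side. From thymidine to colcemid, their changes had the same sign in the lines for 16 codes, and r was -0.02. From colcemid to release 11 codes had the same sign (r = -0.14) and from thymidine to release 10 (r = -0.01). T090 went from 2.50% to 1.17% in HAC 1-20 and from 4.62% to 3.70% in HAC 4-65. T093 fell from 2.19% to 1.02% in the first line, with a log2 change of -1.10, and its change in the second was 0.25.

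Codes were also sorted by CENP-A density, the log2 reads of CENP-A less the mean of the 6 marks in untreated cells. Some of these mark libraries were shallow, with 1462 T reads for H3K9me3 and 2977 for H3K36me2 in HAC 1-20. The highest codes were called dense and the lowest sparse, 1 in 3 of the carried codes, with 20 codes each in HAC 1-20 and 25 each in HAC 4-65. In HAC 1-20 the dense codes, among them T074 to T078, T080 to T083 and T111 to T116, held 44.0% of T reads in thymidine, 52.2% in colcemid and 51.3% after release. The sparse codes held 13.4%, 9.05% and 8.09%. Dense over sparse rose by 0.81 (0.76 to 0.86) from thymidine to colcemid, by 0.14 (0.09 to 0.18) from colcemid to release and by 0.95 (0.90 to 1.00) from thymidine to release, on the log2 scale. Without T088 to T102, which hold 8 of the sparse codes, the values were -0.36, 0.48 and 0.11. The first turned its direction, the second was larger and the third smaller. These values rest on CENP-A reads alone. With density taken against the marks of the same stage, the median of dense less that of sparse codes was 2.60 in thymidine, 3.66 in colcemid and 2.69 after release. On that scale release was thus close to thymidine.

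In HAC 4-65 the dense codes, among them T030 to T046, held 49.7%, 48.6% and 47.9% of T reads, and the sparse codes 8.62%, 10.9% and 10.7%. Dense over sparse changed by -0.37 (-0.58 to -0.15) from thymidine to colcemid, by -0.00 (-0.08 to 0.07) from colcemid to release and by -0.37 (-0.58 to -0.15) from thymidine to release. Sparse codes had a median of 6 reads in the thymidine library. With codes of 30 or more reads at both stages the first value turned to 0.49, but T065 was then the only sparse code left. SiControl against untreated cells differed by -0.09 in HAC 1-20 and by -0.84 in HAC 4-65, where untreated cells had also chosen the lists. With density taken against the marks of the same stage, dense less sparse by medians was 2.91 in thymidine, 3.98 in colcemid and 3.16 after release in HAC 4-65.

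How evenly CENP-A was spread over codes changed little. The number of codes that together held 50% of T reads was 20 in thymidine, 18 in colcemid and 19 after release in HAC 1-20, and 20, 22 and 20 in HAC 4-65. The effective number of codes, the inverse of the summed squared shares, was 46.8, 43.7 and 44.0 in the first line and 49.3, 53.5 and 49.4 in the second. The varying bases of T088 to T102 held a mean of 2.40 G or C of 6, and those of the 46 other carried codes of HAC 1-20 a mean of 2.48.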

How the data were processed

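The authors amplified the position codes of ChIP DNA by competitive PCR, removed unwanted sequence with cutadapt 4.0, assigned reads to codes with Bowtie and counted them with SAMtools, as their processing notes say. The deposited values are raw read counts per code, not normalised, for 128 T and 384 L codes, with the number of unmatched reads, which were 7.55% to 12.0% of all reads in the 6 libraries and were left out. Competitive PCR fixes ratios between codes, not the amount of DNA. Total counts per library set the precision given with each value. Groups came from the sample labels.

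Shares of T reads have exact Clopper-Pearson intervals. Log2 changes used a pseudocount of 0.5 per code and intervals from the Poisson variance of the counts (Python 3.11, numpy and scipy). The share measure was tested on simulated Poisson counts, the variance that its intervals assume. Such a test cannot address spread beyond counting error. Named codes were, per line, the 3 richest in thymidine, the richest of each block, and the 3 largest rises and falls of each comparison among codes with at least 100 reads (30 with HAC 4-65 thymidine), besides codes of runs and counts that were picked after their values were seen. Members, blocks and lists were chosen with earlier results of these data known. Input DNA and qPCR recovery were not used here.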

Additional observations from a re-analysis of the deposited data

Results flagged for a closer look

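In CENP-A reads alone, dense over sparse codes moved in opposite directions in the lines, with counting intervals off 0 in each. From thymidine to colcemid the log2 change was 0.81 in HAC 1-20 and -0.37 in HAC 4-65, and from thymidine to release it was 0.95 and -0.37. The difference between the lines was not tested, both comparisons share the thymidine library, and the values without T088 to T102 or without poorly read codes are given above. The opposite directions were not seen in CENP-A density scaled by the marks of the same stage. Dense less sparse by medians then rose from thymidine to colcemid in both lines, from 2.60 to 3.66 in HAC 1-20 and from 2.91 to 3.98 in HAC 4-65. After release it was 2.69 and 3.16.

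Reads on L117, a number for which no NCU unit was listed, were more frequent relative to T117 than in untreated and siControl cells. In HAC 1-20 there were 164 in colcemid (6.59% of the T117 reads) and 165 after release (6.73%), beside 21 in thymidine (1.87%), 4.92% in untreated and 3.91% in siControl cells.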

How the results depend on the processing

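No paired analysis was possible because each group had 1 library and the groups shared no replicate numbers other than 1. For the same reason no replicate could be left out. T over L kept its direction under all 24 alternatives, and 17 values stayed within the counting interval. With the median over T codes the changes were -0.94 and -0.58 against thymidine in HAC 1-20 and 0.28 from colcemid to release in HAC 4-65. With odd and even L codes, release in HAC 1-20 changed by 0.37 and 0.49 against colcemid and by -0.71 and -0.60 against thymidine.

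Dense against sparse codes in HAC 1-20, colcemid and release against thymidine, gave 0.71 and 0.88 with lists from siControl, 0.34 and 0.66 as medians, and 0.96 and 1.04 with at least 100 reads per code. Without T088 to T102, chosen after seeing the data, the 3 comparisons gave -0.36, 0.48 and 0.11, as these codes make up much of the sparse list. In HAC 4-65 colcemid against thymidine reversed to 0.49 with T065 as the only sparse code past 30 reads. Release against colcemid, at 0 within its interval, gave 0.14 with siControl lists, 0.16 as medians, 0.14 with a carried minimum of 0.2% and -0.22 with at least 100 reads.

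Counts of codes depended on the fold. At 2-fold they were 15, 1 and 11 in HAC 1-20 (main 24, 8 and 24) and 3, 11 and 5 in HAC 4-65 (main 11, 24 and 15). Over L reads colcemid against thymidine gave 44 codes in each line, release against colcemid 19 in HAC 1-20 and release against thymidine 27 in HAC 4-65. With at least 100 reads HAC 4-65 gave 0, 12 and 0, since 1 code of its thymidine library reached 100. Carried L codes by the same rule, added after seeing the data, gave 43, 45 and 38 in HAC 1-20, and 75 and 36 for release in HAC 4-65. Of 99 block values 78 stayed within their interval and 2 reversed as medians over codes, both T051 to T064 of HAC 4-65, at -0.57 and -1.22, where T051 holds most reads. The depth of HAC 4-65 thymidine limits its single codes.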
